A study of Mus musculus with 19 samples.

Results

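The carnitine shuttle genes are a set of 6 mouse genes: *Cpt1a*, *Cpt1b*, *Cpt1c*, *Cpt2*, *Slc25a20* and *Crat*. They were taken from 21000 protein-coding genes and were chosen on a measured value, since *Cpt1b* was selected on its higher 5-hydroxymethylcytosine (5-hmC) coverage in neonatal than in E14.5 cardiomyocytes (CMCs) and the other 5 because they belong to the same transport system. 5-hmC was profiled by hydroxymethylated DNA immunoprecipitation and sequencing (hMeDIP-seq) of CMCs isolated from male C57BL/6J mice that carried no transgene, with 2 biological replicates at each of 4 points, and each replicate gave 1 list of 5-hmC peaks. CMCs were taken from E14.5 embryos, from neonatal pups aged 1 to 2 days, from adults aged 2 months, and from adults that had undergone transverse aortic constriction (TAC), a pressure overload of the left ventricle, 1 week earlier. E14.5 and neonatal CMCs came from digested ventricles and adult and TAC CMCs from the perfused left ventricle, so between neonatal and adult CMCs the age and the preparation cannot be told apart. The adult mice were not operated on, so the operation and the constriction cannot be told apart either.

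Long-chain fatty acids cannot cross the inner mitochondrial membrane as acyl-CoA. Carnitine palmitoyltransferase 1 (CPT1) at the outer membrane moves the acyl group from CoA to carnitine, the carrier encoded by *Slc25a20* takes acylcarnitine inwards in exchange for free carnitine, and CPT2 at the inner membrane rebuilds acyl-CoA for β-oxidation. CPT1 has a liver isoform (*Cpt1a*), a muscle isoform (*Cpt1b*) and a brain isoform (*Cpt1c*), and malonyl-CoA inhibits the liver and muscle enzymes. *Crat* encodes carnitine acetyltransferase, which handles acetyl and other short acyl groups. The heart turns from glucose and lactate to fatty acids as its main fuel after birth, and *Cpt1b* is the main CPT1 gene of the adult heart. 5-hmC is made from 5-methylcytosine by the TET enzymes and in many tissues lies over the gene bodies (GBs) of expressed genes.

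The measure was the percent of a gene's window, its span plus 5 kb on each side, that lay inside the peaks of a list. The lists held 104215 to 153637 peaks and covered 2.46% (TAC replicate 2) to 4.48% (neonatal replicate 2) of the genome, and they do not give the number of reads behind them. Over the 19083 protein-coding genes with a peak in at least 1 list, the median coverage of a window was 3.23% to 4.96%. All 6 genes were among these 19083. A gene was called higher or lower between neighbouring points when both replicates of one point lay above both of the other. With 2 replicates against 2 the exact two-sided permutation test cannot go below p = 0.333, so a call describes samples that did not overlap and is not a significant difference. TAC replicate 2 covered the least of the genome, followed by TAC replicate 1 at 2.84%. Neonatal replicate 2 covered the most, followed by neonatal replicate 1 at 3.68%. The TAC differences of the 6 genes, and the medians of the set and of the pathway genes, are given with and without TAC replicate 2. The windows of the CMC markers *Myh6*, *Tnnt2* and *Tnni3* had peaks in all lists, while *Actc1* reached at most 3.21% and was at 0% in 4 lists and *Pln* was at 0% in 3. The median over 9 CMC markers was 7.53% to 30.2% across the lists, over 7 fibroblast markers 0% to 3.27%, over 5 endothelial markers 3.5% to 14.7% and over 3 blood markers 0% to 2.05%. From neonatal to adult CMCs 7 of the 9 CMC markers were called lower and 0 higher, against 21.3% and 15.5% of all genes. From adult to TAC CMCs 4 of the 5 endothelial markers were called lower and 0 higher, against 23.1% and 6.17% of all genes. At that step 1 CMC marker was called lower and 1 higher, and 0 fibroblast markers lower and 1 higher. The lists come from pools of cells, so a change in the share of a cell type and a change in 5-hmC per cell cannot be told apart, and the part of other cells in the results was not tested.

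The stretches on which the results turn are shown first, with CpG dinucleotides in capitals, since CpG is where most cytosine modification lies. All are from mm10 (GRCm38.p6), written 5′ to 3′ on the strand of the gene. In *Cpt1b*, 3182 bp lay in both neonatal lists and in no list of another point, and the 300 bases of it with the most CpG, chr15:89422058-89422357 on the minus strand, crossed exons 8 and 9 and held 11 CpG.
Cpt1b, both neonatal lists only: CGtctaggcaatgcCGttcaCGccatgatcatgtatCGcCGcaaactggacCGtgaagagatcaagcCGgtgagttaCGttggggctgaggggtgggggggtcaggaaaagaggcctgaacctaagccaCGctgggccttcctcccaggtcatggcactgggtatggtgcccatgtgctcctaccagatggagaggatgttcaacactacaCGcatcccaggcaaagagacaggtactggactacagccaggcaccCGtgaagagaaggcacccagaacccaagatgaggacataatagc
The second *Cpt1b* stretch, chr15:89418934-89419233 on the minus strand, crossed exons 14 and 15, held 12 CpG and was in 7 of the 8 lists.
Cpt1b, most lists: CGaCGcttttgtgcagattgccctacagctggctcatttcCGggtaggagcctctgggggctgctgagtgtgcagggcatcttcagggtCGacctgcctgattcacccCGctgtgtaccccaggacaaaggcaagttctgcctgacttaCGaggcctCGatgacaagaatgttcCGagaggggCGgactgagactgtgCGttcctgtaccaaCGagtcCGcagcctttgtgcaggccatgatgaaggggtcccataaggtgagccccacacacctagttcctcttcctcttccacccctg
In *Crat*, 171 bases of an intron, chr2:30413484-30413654 on the minus strand, lay in all 8 lists and held 5 CpG. No base of the other 5 windows was in all 8.
Crat, most lists: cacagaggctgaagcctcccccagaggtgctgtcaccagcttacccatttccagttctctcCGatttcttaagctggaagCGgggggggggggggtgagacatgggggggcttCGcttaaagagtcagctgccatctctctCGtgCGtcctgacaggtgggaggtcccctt
Another 1840 bp of the *Crat* window lay in both adult lists and in none of the other 6. The 300 bases of it shown here, chr2:30406427-30406726 on the minus strand, were mostly intron, reached into exon 8 and held 10 CpG.
Crat, both adult lists only: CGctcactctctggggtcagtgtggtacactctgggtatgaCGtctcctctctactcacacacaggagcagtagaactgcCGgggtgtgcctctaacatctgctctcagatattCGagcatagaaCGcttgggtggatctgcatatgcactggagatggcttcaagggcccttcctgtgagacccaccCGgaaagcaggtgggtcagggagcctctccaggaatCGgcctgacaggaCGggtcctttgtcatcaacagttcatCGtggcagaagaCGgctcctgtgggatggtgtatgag
In *Slc25a20*, 64 bases of an intron, chr9:108667897-108667960 on the plus strand, were in all adult and TAC lists and in no E14.5 or neonatal list. They held no CpG of their own, and the peaks that met there were 501 to 1370 bp wide.
Slc25a20, all adult and TAC lists only: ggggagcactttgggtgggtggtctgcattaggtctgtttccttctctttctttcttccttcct

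*Cpt1b*, the muscle isoform, was almost filled with 5-hmC peaks in neonatal CMCs and only partly covered at every other point. Neonatal replicates 1 and 2 had 48.4% and 63.3% of its window inside peaks. The E14.5 replicates stood at 17.2% and 8.79%, those of the adult at 16.5% and 22.2%, and those taken after TAC at 16.8% and 5.15%. Both neonatal lists lay far above the other 6, and among the other points every pair of groups overlapped. The neonatal mean was 55.8% ± 10.5 (SD, n = 2), beside 13% ± 5.94 for E14.5, 19.3% ± 4.04 for adult and 11% ± 8.25 for TAC. The neonatal mean exceeded that of E14.5 by 42.8 percentage points, and no other of the 19083 genes had a larger difference in this measure. On the span alone the difference was 69 points, with 1 gene above it. With the same number of peaks drawn from each list, in 1 random draw, it was 26.8 points, with 4 genes above it. Without neonatal replicate 2 it was 35.4 points, with 2 genes above it, and counted as peaks per 10 kb the E14.5 and neonatal replicates overlapped. That contrast chose the gene, so no test is given for it, nor for the difference of −36.5 points from neonatal to adult CMCs, which shares its neonatal samples. With the same number of peaks, in the same random draw, the latter was −15.6 points and the replicates overlapped. Each neonatal list had 1 wide peak here, of 6535 or 9732 bp, while the adult lists covered 3201 and 4313 bp. The overlap therefore needed the draw to leave out a wide peak, and other draws were not made. 7 of 9 CMC markers were called lower at this step too, where 21.3% of all genes were, and their part in the *Cpt1b* difference was not tested. In both neonatal lists the *Cpt1b* window stood at percentile 99.9 of the genes, and in the other 6 lists between percentiles 69.1 and 94.1.

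**Figure D1:**
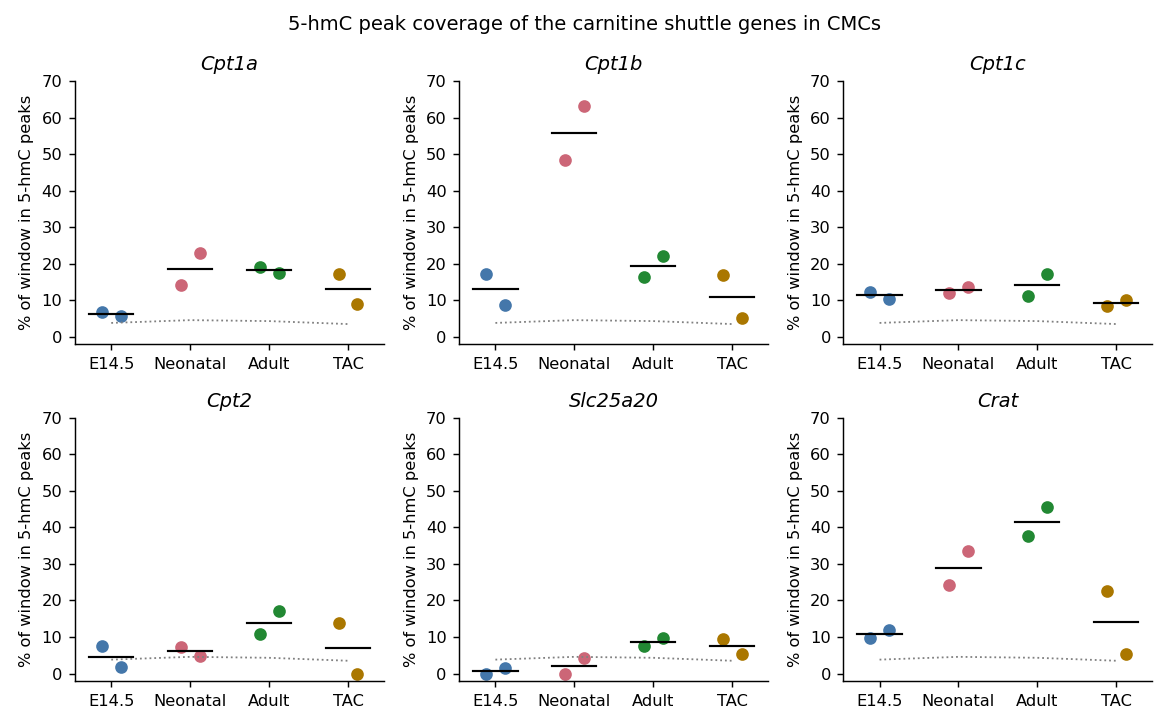
Percent of each gene's window (span plus 5 kb on each side) inside 5-hmC peaks (y axis) at the 4 points (x axis). Each point is 1 replicate, the black bar is the mean of the 2, and the dotted line is the mean of the replicates' medians over 19083 genes; *Cpt1b* stands out in the neonatal lists (48.4% and 63.3%) and *Crat* in the adult lists (37.6% and 45.5%).

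Most of the neonatal coverage of the *Cpt1b* window, 9411 and 12312 bp in replicates 1 and 2, came from 1 wide peak in each list. That peak followed the GB. The gene spans chr15:89416405-89425862 on the minus strand, 9.46 kb with 19 exons. In neonatal replicate 1 a peak of 6535 bp, chr15:89418752-89425286, ran from 576 to 7111 bp after the start site and touched exons 2 to 16. In neonatal replicate 2 a peak of 9732 bp, chr15:89415104-89424835, ran from 1027 bp after the start site past the end of the gene and touched exons 3 to 19. By width these peaks ranked 61 and 20 in their lists, where the median peak measured 501 bp. Without the flanks, peaks covered 79.9% and 89.1% of the span in neonatal CMCs, and the other lists ranged from 5.3% (TAC replicate 2) to 45.1% (adult replicate 2). Exons were covered to 91% and 91.5% and introns to 75% and 88.1% in the neonatal lists.

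The 8752 bp common to both neonatal lists made up 45% of the *Cpt1b* window, and 36.4% of these bases were in no list of the other points. Between the start site and 4646 bp, only E14.5 replicate 1 had a peak outside the neonatal lists, over exons 4 to 7. The stretch over exons 14 to 16, 6596 to 6986 bp after the start site, was in every list but TAC replicate 1, whose peak ended 5 bp before it at 6591 bp. All 501 bp common to the E14.5 replicates lay in the neonatal and the adult common bases. The adult lists shared 1904 bp, of which 1736 bp also lay in the neonatal common bases, and the TAC lists shared no base in this window. The start site itself was in no peak of any list. The window also holds the whole of *Chkb*, a choline kinase gene that lies 486 bp upstream on the same strand and is joined to *Cpt1b* by the noncoding readthrough gene *Gm44502*, and 7 of the 26 peaks were centred in *Chkb*. Its span was covered to 50.3% and 48.5% in the neonatal lists and to 22.7%, 36.2% and 17.6% in replicate 1 of E14.5, adult and TAC, with 0% in each replicate 2.

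**Figure D2:**
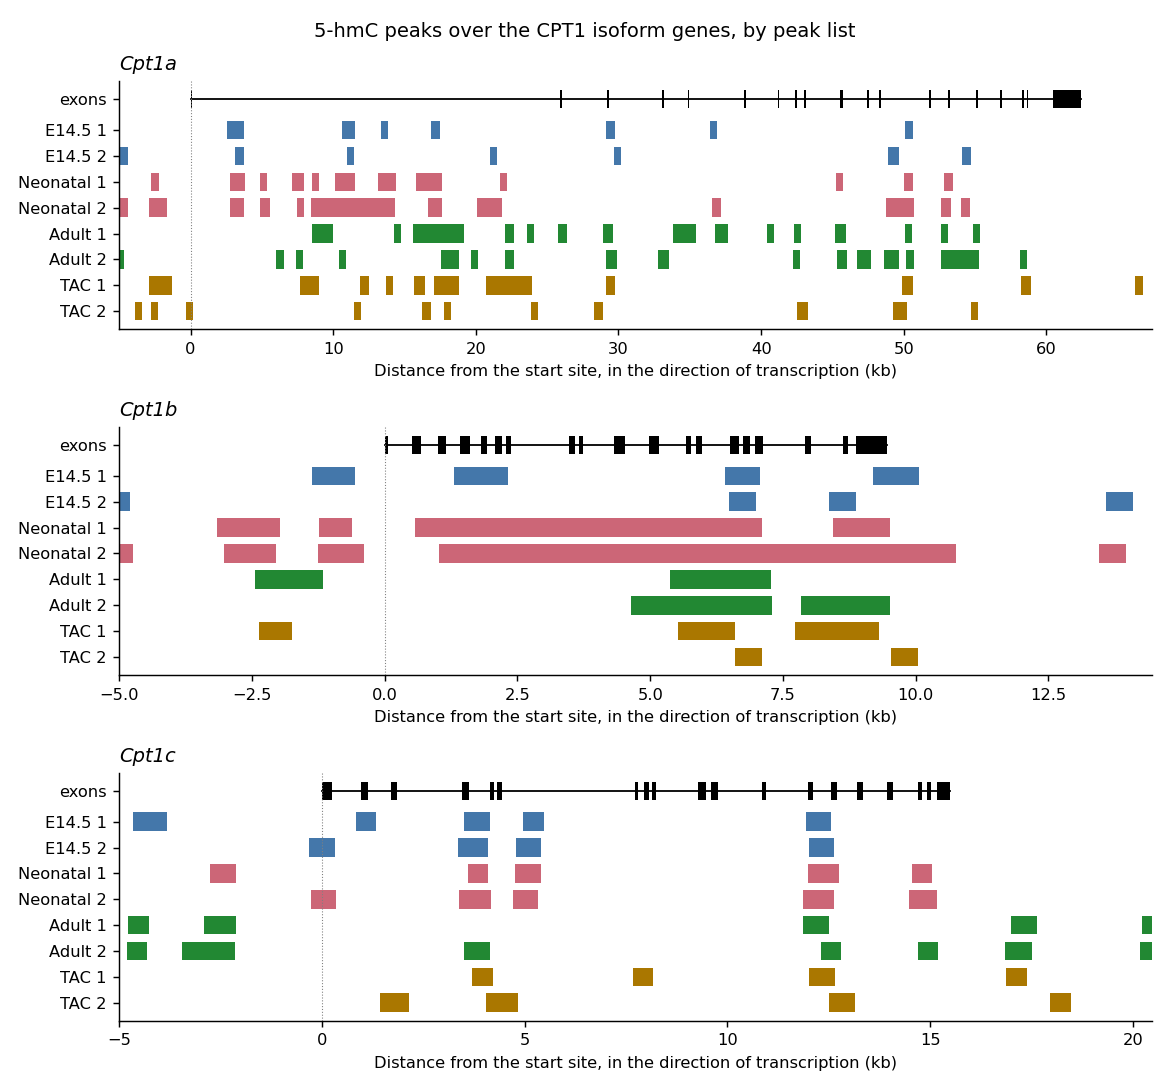
5-hmC peaks (bars) of the 8 lists over the 3 CPT1 isoform genes, by distance from the start site in kb along the direction of transcription, with the exons in black on the top line. *Cpt1b* carried 1 peak of 6535 or 9732 bp along its GB in each neonatal list, *Cpt1c* had places near 4.06 kb and 12.3 kb that were inside peaks in up to 7 lists, and *Cpt1a* carried scattered peaks in its first intron and towards its 3′ end.

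*Cpt1a*, the liver isoform, was also higher in neonatal than in E14.5 CMCs, by a smaller amount, and it did not come down in the adult. The E14.5 lists had 6.69% and 5.74% of its window covered and the neonatal lists 14.1% and 22.9%. Adult replicates gave 19% and 17.5%, and TAC replicates 17.3% and 9.05%. The E14.5 lists were below the other 6, and the neonatal and adult lists overlapped. The neonatal mean exceeded the E14.5 mean by 12.3 points (exact permutation test, two-sided, p = 0.333), or by 7.86 points without neonatal replicate 2, against a median of 0.672 points over all genes. The adult mean differed from the neonatal by −0.264 points (exact p = 1). The gene, chr19:3323301-3385733 on the plus strand, is the longest of the set at 62.4 kb, and 74 of its 91 peaks were centred in introns. No base of its window was in more than 7 lists, and 48.5% of it was in none.

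*Cpt1c*, the brain isoform, had overlapping window coverage at E14.5, neonatal and adult points and was called lower after TAC. The window was covered to 12.3% and 10.5% at E14.5 and to 11.9% and 13.6% after birth. The adult lists gave 11.1% and 17.3%, and the TAC lists 8.36% and 10.2%. E14.5, neonatal and adult values overlapped, with differences of 1.41 points (exact p = 0.667) and 1.44 points (exact p = 1) between neighbouring points. The gene, chr7:44959372-44974851 on the minus strand, had recurring peak places near 4.06 kb and 12.3 kb after the start site, each in up to 7 lists. Its span alone was covered to 15.5% and 20.7% in neonatal but to 4.19% and 10.6% in adult CMCs, a difference of −10.7 points without overlap. In the flanks, 25.7% and 36.5% of the 5 kb before the gene, which holds the end of *Prmt1*, and 17.8% and 19.2% of the 5 kb after it, which holds the end of *Tsks*, were covered in the adult lists.

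Within a list, *Cpt1b* exceeded *Cpt1a* by 34.3 and 40.3 points and *Cpt1c* by 36.5 and 49.6 points in the neonatal replicates. At the other points the order of the isoforms varied between replicates. *Cpt1b* minus *Cpt1a* was 10.5 and 3.05 points for the E14.5 pair, −2.58 and 4.72 for the adult pair and −0.45 and −3.9 for the TAC pair. *Cpt1b* minus *Cpt1c* was 4.92 and −1.66 points, 5.36 and 4.82 points, and 8.46 and −5.1 points for the same pairs. Over the 8 lists *Cpt1b* was the higher one in 5 against *Cpt1a* and in 6 against *Cpt1c*.

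*Slc25a20*, the carnitine-acylcarnitine carrier, had almost no peaks before adulthood. Its window was at 0% and 1.54% in the E14.5 replicates and at 0% and 4.25% in the neonatal ones. It reached 7.55% and 9.86% in the adult lists, and 9.39% and 5.47% in those of TAC. All 4 adult and TAC lists were above all 4 earlier ones. From neonatal to adult CMCs the mean was higher by 6.58 points (exact p = 0.333), at percentile 91.5 of the genes. The gene lies at chr9:108662136-108684642 on the plus strand, with no other curated gene in its window. The recurring places were the intron stretch printed above, about 5.76 kb after the start site, and the region just upstream of the start site, where adult replicates 1 and 2 and TAC replicate 1 had peaks between 308 and 1297 bp before it.

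*Cpt2*, which rebuilds acyl-CoA inside the inner membrane, was likewise higher in adult than in neonatal CMCs. Its window was covered to 7.51% and 1.69% before birth and to 7.3% and 4.83% in the pups. The adult replicates gave 10.7% and 17%, and the TAC replicates 13.9% and 0%. Neonatal and E14.5 lists overlapped, and both adult lists lay above both neonatal lists, by 7.77 points in the mean (exact p = 0.333) and by 4.59 points without adult replicate 2. On the span alone, chr4:107903982-107923589 on the minus strand, the adult values were 7.54% and 23.1% and the neonatal 11% and 7.3%, so that the call ended. The span's exons were in no peak of an E14.5 or a neonatal list. They were covered to 64.4% in adult replicate 2, with peaks on exons 4 and 5, and to 0% in adult replicate 1. TAC replicate 2 had no peak in the window.

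*Crat*, carnitine acetyltransferase, was higher at each step up to the adult and lower after TAC. From 9.75% and 11.9% in the embryo, coverage of its window went to 24.2% and 33.5% in the pups and to 37.6% and 45.5% in the adult. The TAC lists gave 22.5% and 5.48%. E14.5, neonatal and adult lists were in separate ranges, and the TAC lists were both below the adult and the neonatal ones, on either side of the E14.5 lists. The mean difference was 18 points from E14.5 to neonatal, 12.7 points from neonatal to adult and −27.6 points from adult to TAC CMCs (exact p = 0.333 each). In the last contrast 18 of 19083 genes had a lower difference. Without neonatal replicate 1 the adult difference was 8.06 points, and without TAC replicate 2 the TAC difference was −19.1 points.

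Part of the adult coverage in the *Crat* window lay beyond the gene. *Crat* spans chr2:30400476-30415748 on the minus strand, its last 54 bp overlap the end of *Dolpp1*, a dolichyl pyrophosphate phosphatase gene, and its start site lies 301 bp from that of *Ptpa*. The 5 kb after *Crat*, which is *Dolpp1* sequence, was covered to 80% and 78.9% in adult CMCs by peaks of 4002 and 5427 bp, and to 10% to 46.7% in the other lists. On the span alone, *Crat* coverage was 9.57% and 7.19% for E14.5, 24.2% and 29.8% for the neonatal pair, 25.3% and 44.4% for the adult pair and 24% and 3.28% for TAC. Adult and neonatal values then overlapped, while neonatal remained above E14.5. Both TAC lists remained below both adult lists, with TAC replicate 1 (24%) close to adult replicate 1 (25.3%). The intron stretch around 2.09 kb after the start site that all 8 lists held was within a peak of 1711 to 2120 bp in the neonatal, adult and TAC replicate 1 lists, of 961 and 1098 bp at E14.5 and of 501 bp in TAC replicate 2. The adult lists shared 7020 bp, 27.8% of the window, and 3040 bp of these lay in the common neonatal bases.

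**Figure D3:**
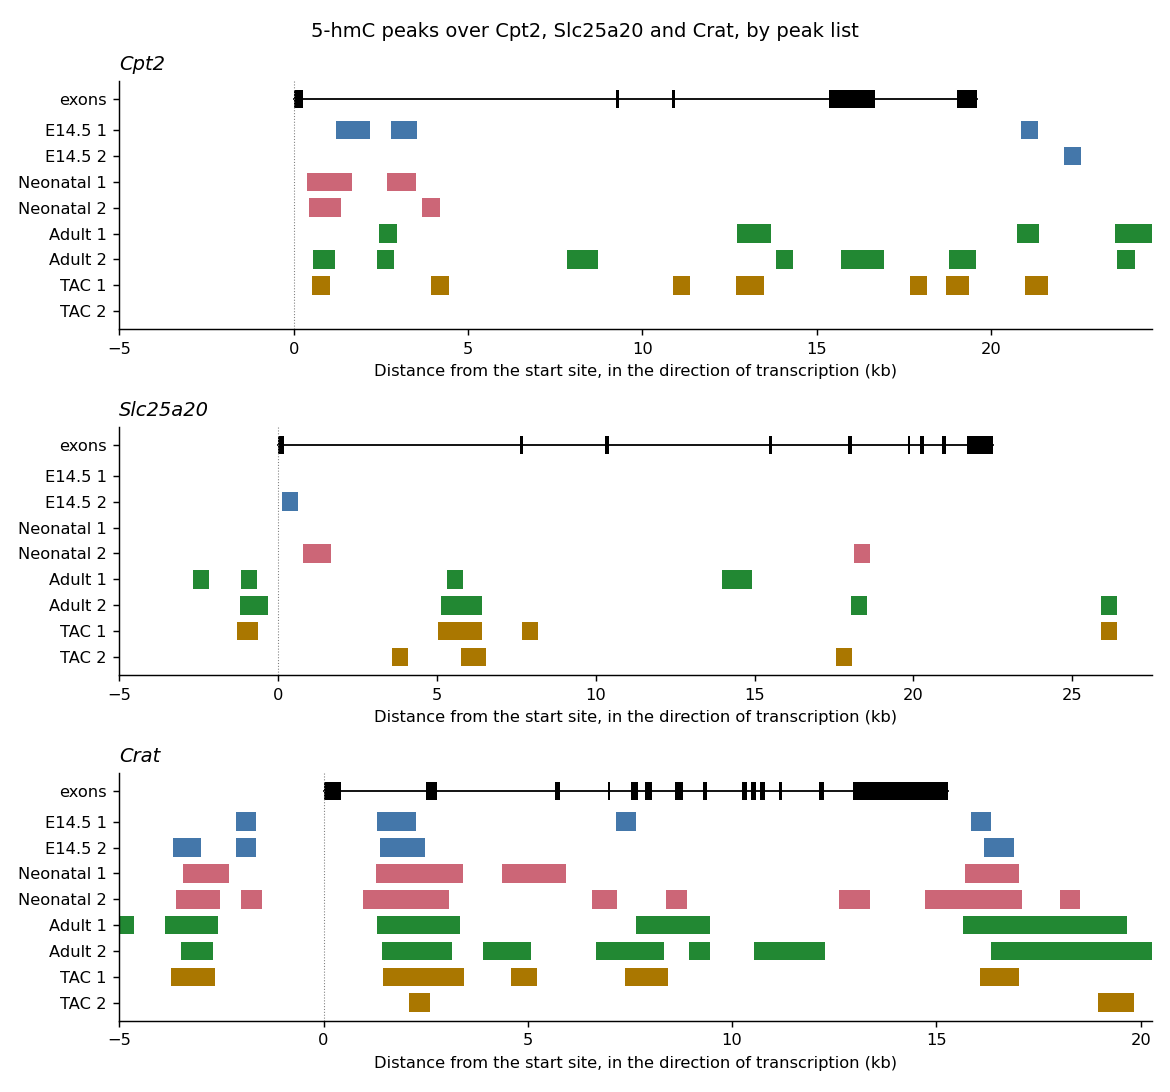
5-hmC peaks (bars) of the 8 lists over *Cpt2*, *Slc25a20* and *Crat*, by distance from the start site in kb along the direction of transcription, with the exons in black on the top line. *Slc25a20* peaks were sparse before the adult lists, TAC replicate 2 had no *Cpt2* peak, and the adult peaks of 4002 and 5427 bp at the right of the *Crat* map lay past its end, in *Dolpp1*.

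Read across the set, 3 of the 6 genes were called higher from E14.5 to neonatal CMCs (*Cpt1a*, *Crat* and *Cpt1b*, the last of which was chosen for it), where 25.3% of all genes were called higher and 6.58% lower. From neonatal to adult CMCs 3 were called higher (*Cpt2*, *Slc25a20* and *Crat*), against 15.5% of all genes, and 1 lower (*Cpt1b*), against 21.3%. From adult to TAC CMCs none was called higher and 3 were called lower (*Cpt1a*, *Cpt1c* and *Crat*), against 6.17% and 23.1% of all genes. The median difference of the set was 6.88, 4.01 and −5.98 points at the 3 steps, and that of all genes 0.672, −0.222 and −0.819 points. Without *Cpt1b* the median of the other 5 was 1.46, 6.58 and −5.08 points. Without TAC replicate 2 the same 3 genes stayed lower in TAC, which their call with both TAC lists fixed in advance. The median of the 6 was then −1.73 points, and that of all genes −0.374 points. With 6 genes, of which 1 was chosen by its values, these counts are given as a description.

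**Figure D4:**
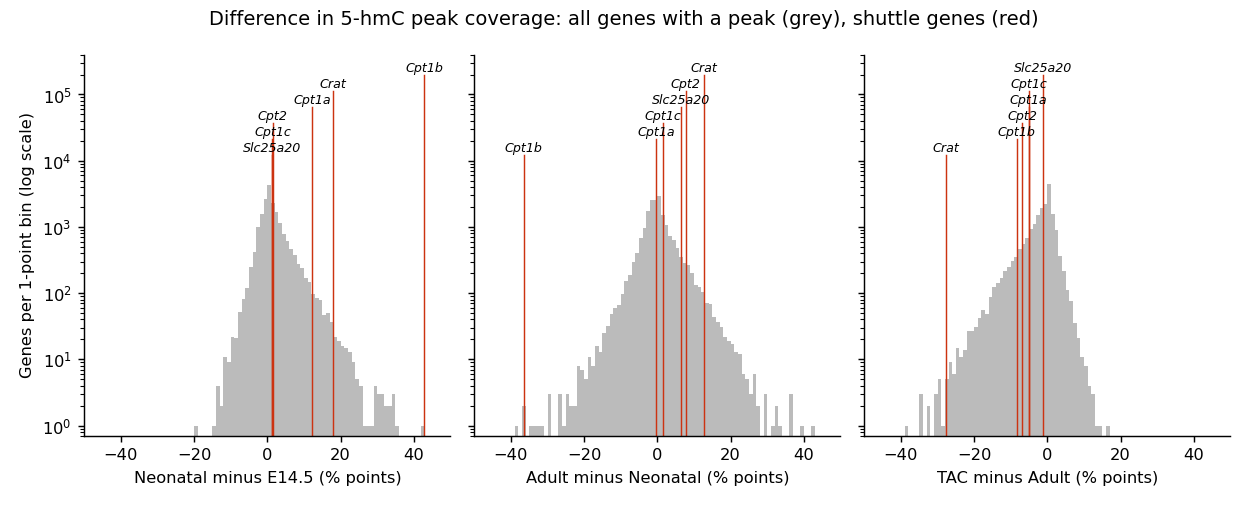
Histogram of the difference in mean percent covered between neighbouring points (x axis, percentage points) for 19083 genes with a peak (grey bars, number of genes per 1-point bin on a log axis), with the 6 shuttle genes as labelled red lines. *Cpt1b* lies at the right edge from E14.5 to neonatal (42.8 points) and near the left edge from neonatal to adult CMCs (−36.5 points), and *Crat* near the left edge from adult to TAC CMCs (−27.6 points).

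From adult to TAC CMCs *Cpt1a* was lower in TAC by 5.08 points in the mean (exact p = 0.333), with only 0.185 points between the nearest replicates, and the difference without TAC replicate 2 was −0.974 points. *Cpt1c* differed by −4.91 points (exact p = 0.333) with the flanks and by 4.7 points in the other direction on the span alone. It differed by −1.79 points without adult replicate 2 and by −5.86 points without TAC replicate 2. *Cpt1b* at −8.33 points and *Cpt2* at −6.88 points (exact p = 0.667 each) overlapped between the groups, and without TAC replicate 2 they differed by −2.49 and 0.0743 points. *Slc25a20* differed by −1.27 points (exact p = 0.667), and by 0.688 points without that replicate. *Crat* was the only one of the 6 whose TAC difference exceeded 10 points both with and without TAC replicate 2. Part of that difference lay in *Dolpp1*: the 5 kb after *Crat* were covered to 80% and 78.9% in adult and to 19% and 17.7% in TAC CMCs. On the *Crat* span alone the mean difference was −21.2 points, but TAC replicate 1 (24%) lay close to adult replicate 1 (25.3%). At this step 4 of the 5 endothelial markers were called lower as well, where 23.1% of all genes were. Without TAC replicate 2 their median difference was −2.21 points, and their part in the differences of the 6 genes was not tested.

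Across all 4 points, a one-sided exact permutation test that paired the 8 samples in all 105 ways gave p = 0.0476 for *Crat*, 0.0857 for *Slc25a20*, 0.152 for *Cpt1a*, 0.333 for *Cpt1c* and 0.476 for *Cpt2*. *Cpt1b* was not tested because it was chosen on these samples. After Benjamini-Hochberg adjustment over 19083 genes none of these passed 0.05 by this permutation test (adjusted p = 0.596 for *Crat* and *Slc25a20*, 0.65 for *Cpt1a*, 0.765 for *Cpt1c* and 0.831 for *Cpt2*). The smallest p the test can give is 0.00952, so that 1398 genes (7.33%) had an unadjusted p under 0.05 and 0 (0%) an adjusted one.

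Most peaks of the set were centred in introns, but the share of the windows that is intron was not set beside this count. *Cpt1a*, the longest gene, gave 74 of the intron peaks, while in *Cpt1b* 8 of 26 peaks were centred in an intron. Of 239 peaks in the 6 windows, counted list by list, 149 were centred in an intron, 23 in an exon, 39 upstream and 28 downstream, and 39 had their centre inside a neighbouring gene. In these windows the neonatal replicates shared most, with 43 of 61 peaks (70.5%) overlapping a peak of the other replicate. The adult (44 of 78, 56.4%), E14.5 (20 of 44, 45.5%) and TAC (20 of 56, 35.7%) pairs followed. The neonatal lists covered more of the genome (3.68% and 4.48%) than the TAC lists (2.84% and 2.46%). The share over all peaks of the lists was not counted, so this order may not be particular to the 6 genes. When 50% of both peaks had to overlap, 0 of 56 TAC peaks were shared, against 52.5% of the neonatal peaks. When their centres had to lie within 1 kb, 22 of the 56 TAC peaks (39.3%) were shared. At the *Cpt1c* stretch 12303 to 12499 bp after the start site, TAC replicate 2 lacked the 196 bp that the other 7 lists held and had its peak from 12512 bp on.

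**Figure D5:**
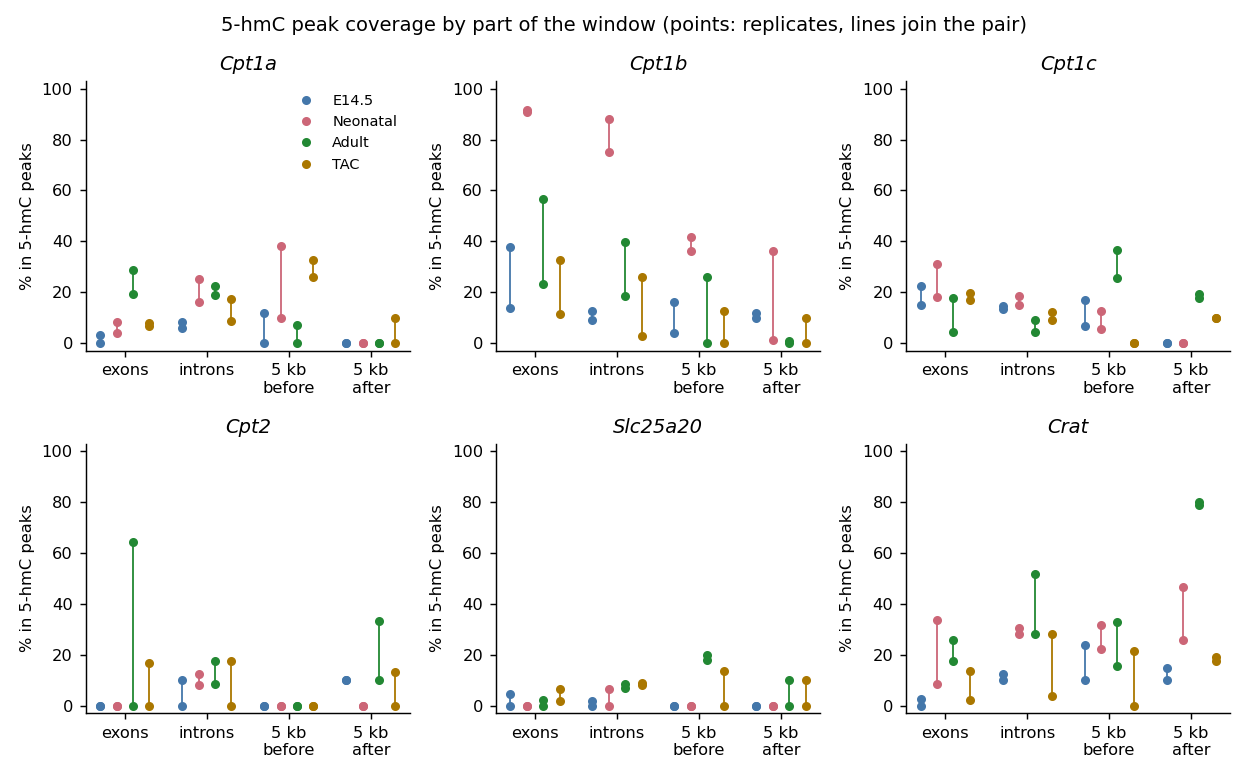
Percent of the exons, the introns and the 5 kb before and after each gene that lay inside 5-hmC peaks (y axis), by point (colour), with 1 point per replicate and a line joining the pair. The neonatal lists filled the exons (91% and 91.5%) and introns (75% and 88.1%) of *Cpt1b*, while the adult coverage of *Crat* was highest in the 5 kb after the gene (80% and 78.9%).

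Peaks at start sites were counted for the 6 genes only, and the share over all genes was not counted. The lists covered 2.46% to 4.48% of the genome, so few peaks over a start site do not set these genes apart. A peak within 1 kb of the start site was found in 1 list for *Cpt1a* and *Crat*, 3 for *Cpt1b* and *Cpt1c*, 4 for *Cpt2* and 5 for *Slc25a20*. A peak over the start site itself was found for *Cpt1a* in TAC replicate 2 and for *Cpt1c* in E14.5 replicate 2 and neonatal replicate 2. The promoter table of RefSeq (GRCm38.p6) held 4 of the 6 genes, *Cpt1a*, *Cpt1c*, *Cpt2* and *Slc25a20*. The 2 promoters that met a peak are shown as the 250 bases before the start site, at chr19:3323051-3323300 on the plus strand for *Cpt1a* and chr7:44974852-44975101 on the minus strand for *Cpt1c*.
Cpt1a: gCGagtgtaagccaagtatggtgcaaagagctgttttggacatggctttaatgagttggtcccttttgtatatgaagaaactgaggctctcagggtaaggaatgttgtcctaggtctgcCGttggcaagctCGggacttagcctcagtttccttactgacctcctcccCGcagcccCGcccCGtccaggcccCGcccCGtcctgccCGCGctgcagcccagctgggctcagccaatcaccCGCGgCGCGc
Cpt1c: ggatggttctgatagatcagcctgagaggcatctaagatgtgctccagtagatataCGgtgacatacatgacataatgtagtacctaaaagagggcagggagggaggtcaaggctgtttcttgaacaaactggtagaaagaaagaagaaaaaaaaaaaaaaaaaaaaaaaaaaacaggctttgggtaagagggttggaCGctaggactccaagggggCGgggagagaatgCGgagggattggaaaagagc
The *Cpt1a* promoter held 14 CpG and that of *Cpt1c* 4, where the median of 27025 promoters was 6. Those of *Cpt2* and *Slc25a20* held 13 and 8 and were in no peak. The motif was CG, which reads the same on both strands.

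The CpG density of the covered *Cpt1b* bases ranged from below that of its whole window in neonatal replicate 2 to above it in TAC replicate 2. The window held 2.26 CpG per 100 bp, the densest of the 6 (1.14 in *Cpt2* to 1.83 in *Cpt1c* for the others), and its covered bases held 2.26 and 2.05 CpG per 100 bp in the neonatal lists and 2.25 to 2.89 in the other 6. The neonatal peaks took in 48.4% and 57.3% of its CpG, against 6.59% to 23% in the other lists.

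Other genes of the pathway were higher in neonatal than in E14.5 CMCs more often than lower. Of 22 listed genes for carnitine supply, malonyl-CoA control, acyl-CoA supply and the first steps of β-oxidation, 21 were found and all had a peak. From E14.5 to neonatal CMCs 10 were called higher and 1 lower, from neonatal to adult 7 and 4, and from adult to TAC 0 and 9. Their median differences were 2.64, −0.447 and −2.48 points, beside 0.672, −0.222 and −0.819 points for all genes. For all genes the shares called were 25.3% higher and 6.58% lower at the first step, 15.5% and 21.3% at the second, and 6.17% and 23.1% at the third. Without TAC replicate 2, 2 of the 21 were higher and 9 lower in TAC, against 19.2% and 30.8% of all genes, and their median difference was −1.47 points. No test of the list was made.

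Among these genes, 5 were called higher at both steps up to the adult and lower after TAC, the pattern of *Crat*, which 595 of the 19083 genes (3.12%) showed. Leaving out TAC replicate 2 could not end the TAC call of any of the 5, since both TAC lists lay below both adult lists. Their median TAC difference was then −7.57 points, beside −0.374 points for all genes, and its sign was fixed by the same choice. *Acacb*, which makes the malonyl-CoA that restrains CPT1, went from 8.63% and 8.51% in the embryo to 17.6% and 23.5% in the pups and 32.8% and 48.1% in the adult, with 30.5% and 15.2% after TAC. *Slc25a29*, another mitochondrial carrier of the same protein family as *Slc25a20*, was at 12.5% and 16.4%, 22.2% and 27.7%, 29.7% and 41.4%, and 21.7% and 11.1% at the same points. *Acadm*, the medium-chain acyl-CoA dehydrogenase, was at 7.07% and 10.9%, 20% and 24.9%, 30.4% and 30.3%, and 22.8% and 12%. The other two were *Aldh9a1*, an enzyme of carnitine synthesis, and *Hadha*, a subunit of the trifunctional protein of β-oxidation, whose means were higher by 6.6 and 10.8 points from E14.5 to neonatal and by 5.8 and 6.45 points from neonatal to adult CMCs.

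The widest differences of the list were in other genes. *Mlycd*, which breaks malonyl-CoA down, had the largest difference from E14.5 to neonatal CMCs, at 6.14% and 7.46% against 30.6% in both neonatal lists, 23.8 points in the mean. *Acadvl*, the very-long-chain acyl-CoA dehydrogenase that acts just after the shuttle, was at 4.11% and 21.7% in the pups, 49.6% and 55.1% in the adult and 31.1% and 26.4% after TAC. Its differences, 39.4 points from neonatal to adult and −23.5 points from adult to TAC CMCs, were the largest of the list at each step, and without TAC replicate 2 the latter was −21.2 points. At the other end, *Acsl6* differed by −1.88 points from E14.5 to neonatal CMCs, *Acsl5* by −3.78 from neonatal to adult, and *Slc22a5*, the carnitine transporter of the cell membrane, by 2.9 from adult to TAC, where its replicates overlapped. Without TAC replicate 2 the *Slc22a5* difference was 5.13 points and the remaining list lay above both adult lists. *Acsl3*, an acyl-CoA synthetase as are *Acsl5* and *Acsl6*, was called lower at both later steps, with differences of −2.9 and −2.56 points, the second −1.47 points without TAC replicate 2.

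The genes whose coverage over the 8 lists was most like that of *Cpt1b*, among 16315 genes with a peak in at least 4 lists and no overlap with its window, were *Ube2e3* (Pearson's r = 0.99), *Kcng2* (0.99) and *Ptp4a2* (0.988). The lists share 2 replicates a point, and their overall coverage differed, so r is a description. *Ube2e3* encodes a ubiquitin-conjugating enzyme, *Kcng2* a subunit of voltage-gated potassium channels and *Ptp4a2* a protein tyrosine phosphatase. *Kcng2* was at 46.7% and 57.6% in the neonatal lists, beside the 48.4% and 63.3% of *Cpt1b*, and at 14.8% to 31.7% in the other 6. *Ube2e3* was also highest in the neonatal lists, at 11.1% and 12.2%, beside 4.18% to 6.43% in the other lists.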

How the data were processed

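5-hmC was measured by hMeDIP-seq in 8 samples; the other 11 samples of the series, inputs and sh-control libraries, were not analysed here. The authors aligned reads to mm10 with BWA 0.7.4-r385, marked duplicates with Picard, dropped reads of mapping quality under 10 and called peaks for each replicate against input with HOMER. The deposited lists give peak positions and a score column that is 1 throughout, so they do not give reads per sample, a deeper library can give more peaks, and no interval was computed. According to the file headers, HOMER scaled the input to the immunoprecipitate for both E14.5 lists and replicate 1 of the neonatal and adult lists, and the immunoprecipitate to the input for the other 4; the part of this in the results was not tested. Windows used curated RefSeq transcripts of GRCm38.p6 (26182 genes). Coverage, calls and exact permutation tests were computed with Python 3.11.15 and numpy 2.4.6. Coverage was checked on simulated peaks, and the calls and the test over 4 points on simulated coverage values. The test of 2 against 2 was not checked in this way. Each exact p-value ranks the observed grouping of the samples among all possible groupings. It does not measure the size of a difference or the spread of the 2 biological replicates. Alternatives were the gene span alone, peaks per 10 kb, coverage relative to the list, equal peak numbers, peaks found in another list, GENCODE M21 genes, a replicate block and leaving out each replicate; the counts of the lists without TAC replicate 2, the rank of *Cpt1b* in each setting and the medians without *Cpt1b* were added after seeing the data. The text names the 6 genes, their neighbours, the pathway genes called alike at 2 steps or at either extreme of a step, and the 3 genes most like *Cpt1b*. The members, the gene lists and the tests were chosen with earlier results of these data known.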

Additional observations from a re-analysis of the deposited data

How the results depend on the processing

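The order of the replicates behind each call was compared under 7 other settings that kept all samples. The higher neonatal coverage of *Cpt1a* and the higher adult coverage of *Slc25a20* were called under each of the 7, of which the replicate block cannot end a call. GENCODE M21 gene models changed no call of the 6 genes. On the span alone, *Cpt1c* was called higher from E14.5 to neonatal CMCs (3.16 points) and lower from neonatal to adult (−10.7), its TAC difference changed sign (4.7), and the calls of *Cpt2* (6.19) and *Crat* (7.83) from neonatal to adult ended. Counted as peaks per 10 kb, where 1 wide peak counts as 1, the neonatal calls of *Cpt1b* (0.257 peaks) and *Crat* (0.791), and the adult (0) and TAC (−0.989) calls of *Crat*, ended, and *Cpt1a* was called higher in adult than in neonatal CMCs (0.483). Relative to the coverage of each list, *Cpt1c* was called higher from neonatal to adult CMCs (3.89), and the TAC calls of *Cpt1a* (−2.69) and *Cpt1c* (−2.47) ended. For equal peak numbers, 104215 peaks were drawn from each list in 1 random draw, which can leave out a single wide peak. In that draw *Cpt1c* was called higher in adult than in neonatal CMCs (3.29). The adult call of *Cpt1b* (−15.6) and the TAC call of *Cpt1a* (−3.53) ended. With only peaks that met a peak of another list, *Cpt1c* was called higher in neonatal CMCs (2.4) and the TAC call of *Cpt1a* (−3.08) ended. The cause of these differences was not tested, apart from the number of peaks, which by construction takes no account of width.

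The number of genes called moved by over 1.5 times in these settings. From E14.5 to neonatal CMCs, 3049 were higher as peaks per 10 kb (4833 as reported) and 2870 lower relative to the list's coverage (1255 as reported). From neonatal to adult, 5296 (relative coverage) and 4764 (equal peak numbers) were higher (2959 as reported) and 2358 (equal peak numbers) lower (4067 as reported). From adult to TAC, 2364 (relative coverage) and 657 (peaks found in another list) were higher (1178 as reported) and 2792 (peaks per 10 kb) lower (4408 as reported). None of the 5 genes tested over the 4 points passed an adjusted p of 0.05 by the permutation test in any setting. Without TAC this was fixed in advance, since the smallest possible p of the permutation test was 0.0667. With the replicate block the smallest possible p was 0.0417, so a pass was hardly possible. *Cpt1a* reached an unadjusted permutation p of 0.00952 as peaks per 10 kb and *Cpt1c* 0.019 on the span alone. *Crat* had a permutation p of 0.219 on the span alone and 0.0667 in the 3 points without TAC (adjusted p = 0.644, and 0.583 to 1 over its settings). The share of TAC peaks found in both replicates was 0% when 50% of both had to overlap.

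Same-numbered replicates share only a number: the correlation of their deviations from the means of their points ranged from −0.232 to 0.206 over the 6 pairs of points. With the replicate block, where both same-numbered differences had to point one way, 2303 genes were lower from E14.5 to neonatal CMCs and 1809 higher from adult to TAC. A call made without the block stays by construction, and none of the 6 genes gained a call with it.

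With 1 replicate left out, a gene counts as called when the remaining sample lies outside the other point's range, which by construction calls more genes. Every call made with all samples stays by construction under this rule, so the calls of the 6 genes could not be checked in this way. For genes whose groups overlapped, the differences ranged from 0.504 to 2.32 (*Cpt1c*), −1.45 to 4.37 (*Cpt2*) and −0.771 to 3.48 points (*Slc25a20*) from E14.5 to neonatal CMCs, from −4.69 to 4.17 (*Cpt1a*) and −1.69 to 4.57 (*Cpt1c*) from neonatal to adult, and from −14.2 to −2.49 (*Cpt1b*), −13.8 to 0.0743 (*Cpt2*) and −3.23 to 0.688 (*Slc25a20*) from adult to TAC. Genes called higher ranged from 7079 to 8998, 4051 to 6652 and 2085 to 3683 at the 3 steps, and genes called lower from 2240 to 4187, 5249 to 7759 and 5872 to 9015. Since the lists give no reads per sample, a window with no peak cannot be told from one that was read too shallowly.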
